A study of Mus musculus with 12 samples.

Results

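The cytotoxic granule genes of intestinal intraepithelial lymphocytes (IEL) were followed across 4 groups of sorted cells. They were taken by symbol from a list of 8 genes that covers 5 granzymes (Gzma, Gzmb, Gzmc, Gzmk and Gzmm), perforin (Prf1), the granule proteoglycan serglycin (Srgn) and the granule membrane protein Nkg7. All 8 were among the 25899 gene symbols of the count table, and all 8 passed the filter on low counts that left 12622 genes for testing. Each member is described in every library, as a level and as a share of the library's reads.

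RNA was sequenced in bulk from small intestinal IEL of Rag2-/- mice, collected 1 week after conventional T cells of Themis wild-type lymph nodes had been injected intravenously, so the Rag2-/- host and the Themis wild-type donor were common to all groups. Rag2-/- hosts lack T and B cells but keep natural killer (NK) cells, other innate lymphoid cells and myeloid cells. Hosts given CD4+ T cells gave the groups CD4 IEL (sorted TCRβ CD4+) and CD8αα from CD4 (sorted TCRβ CD8αα+), and hosts given CD8αβ+ T cells gave CD8αβ IEL (sorted TCRβ CD8αβ+) and CD8αα from CD8αβ (sorted TCRβ CD8αα+). The labels give the genotype as WT, no age, and 3 libraries per group, and they do not tie libraries to animals. Adjusted p-values below therefore reflect the spread among these libraries, which may be technical. The series title concerns how CD8αα IEL of CD4 and of CD8 T cell origin differ in function, and granule genes bear on killing function.

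Cytotoxic lymphocytes kill by releasing granules onto a target cell. Perforin forms pores in the target membrane, granzymes are serine proteases that enter through them and cleave proteins inside the target, and serglycin is the proteoglycan on which these proteins are stored in the granule. IEL of the gut are known for a ready store of granzymes.

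Depth and the identity of the sorted cells bear on all results below. Library totals were 5618917 to 11068713 counts, and 3 counts, the limit that a count of 0 allows, corresponded to 0.271 to 0.534 CPM (counts scaled to 1e6 per library). Coreceptor transcripts followed the labels: Cd4 was at 1640.2 CPM on average in CD4 IEL and at no more than 42.2 CPM in any library of the other groups, and Cd8b1, the CD8β chain, was at 1123 CPM in CD8αβ IEL and at 17.4 and 2.95 CPM in CD8αα from CD4 and CD8αα from CD8αβ. In contrast, Cd3e, which encodes a chain of the T cell receptor complex, was at 3.21 to 22.1 CPM in the 6 libraries labelled CD8αα against 403 to 638 CPM in the other 6. Of 11 T cell markers, 10 were lower and 1 higher in CD8αα from CD4 than in CD4 IEL, and 9 were lower and 1 higher in CD8αα from CD8αβ than in CD8αβ IEL, with median log2 fold changes of -5.60 and -4.85 (edgeR adjusted p under 0.05; 15% and 16.1% of all genes were higher and 13.5% and 15.1% lower). The marker that was higher was Cd3g, at 1900.2 to 3777 CPM in the libraries labelled CD8αα against 424 to 1001 CPM. Cd3g and the kinase gene Lck (1669 to 2006 CPM against 1936 to 2476) made up most of the summed level of the 11 markers there, 3705 to 5910.1 CPM against 7544 to 9081, and no marker was at 0 in a group. The summed level of 12 NK cell and innate lymphoid markers was 4665 to 7464 CPM in the libraries labelled CD8αα. It was 506 to 1419 CPM in the others. Of the 11 tested, 8 were higher and 1 lower in CD8αα from CD4 than in CD4 IEL. In CD8αα from CD8αβ against CD8αβ IEL, 7 were higher and 2 lower. Cd160 was lower in both, at 151 against 345 CPM and at 189 against 567 CPM on average. Klrk1 was lower in the CD8αβ comparison, at 3.94 against 97.5 CPM. Tyrobp, Cd244 and Fcer1g made up most of the sum in the libraries labelled CD8αα. Of the NK markers, Klrb1c was at 163 to 341 CPM in the libraries labelled CD8αα, while Ncr1 was at 0 to 4.27 CPM there. Klra4 and Klra8 were at 0 in CD4 IEL, Ncr1, Klra4 and Klra8 in CD8αβ IEL, and Klra4 in CD8αα from CD8αβ. Of 8 myeloid markers, 1 was higher and none lower in CD8αα from CD4 than in CD4 IEL (median log2 fold change -0.92), and 1 was higher and 5 lower in CD8αα from CD8αβ than in CD8αβ IEL (median -2.76). The higher one was Itgam, the integrin chain CD11b, which NK cells also carry, at 152 to 256 CPM against 1.58 to 16.6. The summed level was 176 to 285 CPM against 36.5 to 107, and Itgam made up most of it in the libraries labelled CD8αα. Emr1 was at 0 in CD8αα from CD8αβ. Of 11 epithelial markers, 2 and 4 were higher and none lower, and the sum was 462 to 791 CPM against 107 to 504. In the libraries labelled CD8αα that sum was mostly Cdh1 (232 to 296 against 50.9 to 109.7) and Epcam (95.4 to 232 against 1.95 to 51.9). Cd79b, a B cell receptor chain named here after its values were seen, was at 45.04 to 73.95 CPM against 3.13 to 19.95. Of 9 mast cell markers, Ms4a2, Fcer1a, Cma1 and Tpsb2 were at 0 in all groups, and the sum (71.9 to 180.4 CPM over the 12 libraries) was mostly Kit. Of the 3 tested, Cpa3 was called higher in both CD8αα groups at 1.03 to 4.94 CPM against 0 to 0.494. Hdc was called lower in CD8αα from CD4 than in CD4 IEL (0.153 against 1.81 CPM on average). It did not pass in CD8αα from CD8αβ against CD8αβ IEL (2.16 against 2.75 CPM), and Kit passed in neither comparison.

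The transcripts of 4 Y-linked genes were present in all 6 CD4 IEL and CD8αβ IEL libraries (233 to 449 CPM summed), but in only 2 of the libraries labelled CD8αα, replicate 3 of the CD4 progeny (363 CPM) and replicate 2 of the CD8αβ progeny (321 CPM). The other 4 had 0.341 to 1.03 CPM, and the X-inactivation transcript Xist was at 373 to 644 CPM in these 4 and at 0 to 36.4 CPM in the other 8. The host's sex and the donor's sex are not given in the labels. In bulk samples, fewer cells of a type and less RNA per cell cannot be told apart. The part of these markers in the granule gene results was not tested, nor was whether the cells labelled CD8αα descended from the transferred T cells, so progeny below follows the labels. The comparisons of the 8 members are also given with the Y-positive CD8αα libraries alone, and those of other gene lists are not.

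Promoter windows of 4 members are shown because these members cover the patterns described below: Gzma and Gzmb were higher in both CD8αα groups, Prf1 was higher in both but unequally, and Gzmk was lower. The sequences run from 250 bases before to 50 bases after the RefSeq transcription start on GRCm38.p6 (mm10), 5′ to 3′ on the gene's strand, and capitals mark the motifs that were searched for on both strands. Gzma (ENSMUSG00000023132) lies on chromosome 13 from 113093825 to 113100979, Gzmb (ENSMUSG00000015437) on chromosome 14 from 56258856 to 56262260, Gzmk (ENSMUSG00000042385) on chromosome 13 from 113171608 to 113225908, all on the minus strand, and Prf1 (ENSMUSG00000037202) lies on the plus strand of chromosome 10 from 61297836 to 61304263. Of the other members, Gzmc (ENSMUSG00000079186) lies on the minus strand of chromosome 14 from 56231401 to 56234656, Gzmm (ENSMUSG00000054206) and Srgn (ENSMUSG00000020077) lie on chromosome 10 from 79689020 to 79695261 (plus strand) and from 62493833 to 62527451 (minus strand), and Nkg7 (ENSMUSG00000004612) lies on the plus strand of chromosome 7 from 43437073 to 43438246. The RefSeq start used for Gzmk lies inside the span given for that gene. The Gzmb window, from 56262285, lies wholly outside the span given for Gzmb, which ends at 56262260. Distances of motifs are counted from the RefSeq starts.
Gzma, chr13:113100932-113101231, minus strand: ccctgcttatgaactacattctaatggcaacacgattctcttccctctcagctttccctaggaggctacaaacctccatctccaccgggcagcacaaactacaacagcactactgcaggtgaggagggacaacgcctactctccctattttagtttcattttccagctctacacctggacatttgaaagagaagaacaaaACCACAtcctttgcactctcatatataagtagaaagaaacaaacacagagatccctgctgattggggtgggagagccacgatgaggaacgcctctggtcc
Gzmb, chr14:56262285-56262584, minus strand: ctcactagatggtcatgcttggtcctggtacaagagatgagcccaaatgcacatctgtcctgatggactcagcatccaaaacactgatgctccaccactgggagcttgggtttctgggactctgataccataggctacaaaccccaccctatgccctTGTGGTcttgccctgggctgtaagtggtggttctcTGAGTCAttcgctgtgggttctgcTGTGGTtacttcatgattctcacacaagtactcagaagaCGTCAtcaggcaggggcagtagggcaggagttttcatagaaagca
Gzmk, chr13:113180916-113181215, minus strand: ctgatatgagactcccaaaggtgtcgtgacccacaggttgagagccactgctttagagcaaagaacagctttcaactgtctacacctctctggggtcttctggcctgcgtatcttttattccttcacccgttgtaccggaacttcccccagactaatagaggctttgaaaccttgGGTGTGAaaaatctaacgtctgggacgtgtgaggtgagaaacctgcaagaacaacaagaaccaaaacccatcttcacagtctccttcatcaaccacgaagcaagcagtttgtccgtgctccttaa
Prf1, chr10:61297586-61297885, plus strand: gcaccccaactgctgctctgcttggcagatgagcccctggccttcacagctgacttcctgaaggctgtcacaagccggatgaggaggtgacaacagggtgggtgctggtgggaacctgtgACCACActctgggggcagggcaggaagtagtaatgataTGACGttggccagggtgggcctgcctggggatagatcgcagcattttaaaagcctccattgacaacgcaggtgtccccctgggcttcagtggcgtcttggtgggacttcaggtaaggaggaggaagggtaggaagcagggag

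The searched motifs were TGTGGT, recognised by RUNX factors, GGTGTGA, recognised by T-box factors such as T-bet and Eomes, TGANTCA, recognised by AP-1, and TGACG, the core of sites for CREB and ATF factors. They were chosen with these sequences in view and do not overlap one another in the 4 windows shown. The RUNX letters were in the windows of 7 of 8 members and in 16.8% of 32851 RefSeq promoter windows of the same length. Gzmk was the member without them. In Gzma the RUNX letters began 50 bases before the start, in Gzmb 93 and 34 bases before it, and in Prf1 130 bases before it. The T-box letters were in windows of Gzmk (75 bases before the start), Gzmm and Nkg7, against 4.0% of all windows. The AP-1 letters were in the Gzmb window alone among members (58 bases before the start; 7.8% of all windows). The TGACG letters were in the windows of Gzmb, Gzmc, Prf1 and Srgn (20.8% of all windows). Gzmm and Srgn have 2 windows each, and a match in either was counted, whereas the shares of all windows are per window. With motifs chosen in view of the sequences, these counts are no test of enrichment. A match describes letters in a window and is no evidence of binding.

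Granule genes took 5.17 to 6.89% of all counts in the libraries labelled CD8αα and 0.570 to 1.95% in the libraries of CD4 IEL and CD8αβ IEL. In CD8αα from CD4 the 8 genes together held 5.17, 6.89 and 6.76% of counts in replicates 1, 2 and 3 (6.27% ± 0.959, SD, n = 3), and in CD8αα from CD8αβ they held 5.72, 6.39 and 6.52% (6.21% ± 0.428). In CD4 IEL the shares were 0.570, 1.23 and 0.733% (0.845% ± 0.345) and in CD8αβ IEL 0.935, 1.95 and 1.22% (1.37% ± 0.525). The exact (Clopper-Pearson) 95% intervals were narrow beside the spread between libraries: the lowest CD8αα share, 5.17%, had an interval of 5.15 to 5.19%, and the highest share of the other groups, 1.95%, had 1.94 to 1.96%. These intervals cover counting error only.

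Gzma was the gene with the most counts in each of the 6 libraries labelled CD8αα. It ranked between 6 and 28 among all genes in CD4 IEL and between 2 and 15 in CD8αβ IEL. Gzmb ranked 2 or 3 in the libraries labelled CD8αα, 8 to 30 in CD4 IEL, and 12 to 44 among CD8αβ IEL libraries. Gzma and Gzmb together made up 92.5% ± 0.533 of the counts of the 8 genes in CD8αα from CD4 and 92.0% ± 0.336 of those in CD8αα from CD8αβ, against 76.0% ± 8.11 in CD4 IEL and 65.7% ± 9.16 in CD8αβ IEL (SD, n = 3). The 2 ranges from CD8αα libraries did not overlap those of the other groups.

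**Figure D1:**
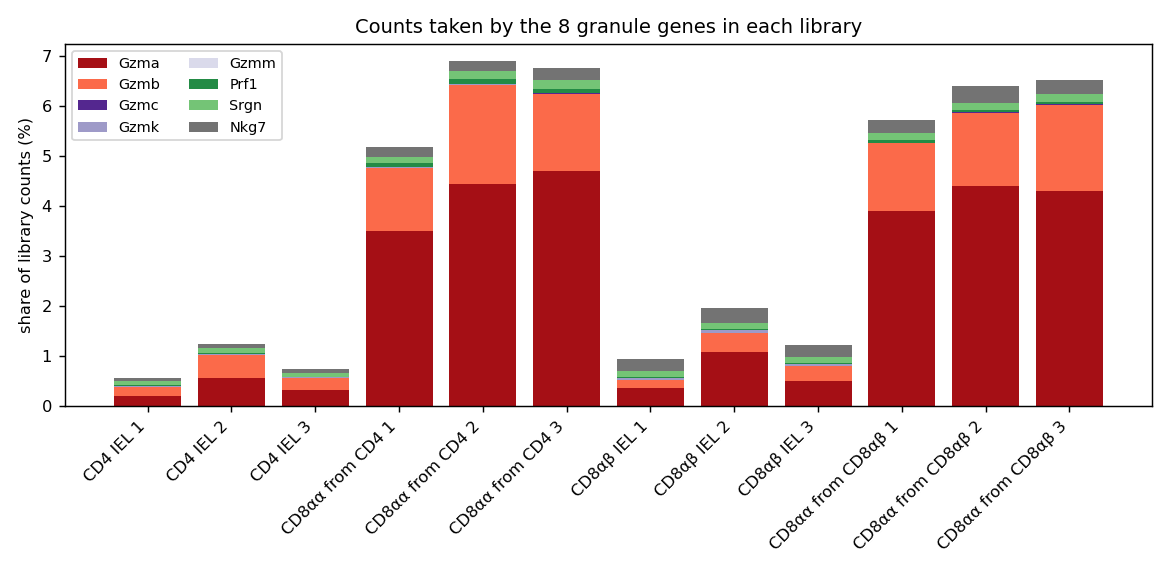
Share of each library's counts (%, linear axis from 0) taken by the 8 granule genes, stacked by gene, for the 12 libraries in 4 groups of 3. The CD8αα bars reach 5.17 to 6.89% and consist mostly of Gzma and Gzmb, and the bars of CD4 IEL and CD8αβ IEL stay between 0.570 and 1.95%.

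Members differed widely in level per length, and their order was read from CPM per kilobase of exon (GENCODE M21 exon union). In CD8αα from CD4 the mean levels per kilobase were 41676 for Gzma, 11041 for Gzmb, 2304 for Nkg7, 677.5 for Srgn, 362 for Prf1, 94.0 for Gzmc, 46.3 for Gzmk and 1.37 for Gzmm. The order was the same in CD8αα from CD8αβ, from 44111 for Gzma, 11114 for Gzmb and 3373 for Nkg7 down to 733 for Srgn, 179 for Prf1, 82.8 for Gzmc, 14.4 for Gzmk and 1.51 for Gzmm. Only the neighbours Gzmc (52.3 to 138) and Gzmk (37.2 to 52.8) overlapped over the libraries of CD8αα from CD4, and no neighbours overlapped in CD8αα from CD8αβ.

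The order differed in the other groups. In CD4 IEL Gzma (3340 CPM per kilobase, 1830 to 5145) and Gzmb (1951, 1226 to 3014) overlapped over the libraries, followed by Nkg7 at 765, Srgn at 362, Gzmk at 85.1, Prf1 at 48.1, Gzmc at 3.61 and Gzmm at 1.25, of which no others overlapped. In CD8αβ IEL Nkg7 (2810 CPM per kilobase) stood between Gzma (6548) and Gzmb (1952), with overlap of Nkg7 (2575 to 3140) and Gzmb (1217 to 2581). Below them came Srgn at 551, Gzmk at 341, Prf1 at 73.8, Gzmm at 5.05 and Gzmc at 1.67, without overlap. Gzmk thus stood above Prf1 and Gzmc in both CD4 IEL and CD8αβ IEL and below them in both CD8αα groups. The counting annotation of the authors is not given in the sources used here, so the exon lengths are those of GENCODE and the order of close neighbours depends on them.

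**Figure D2:**
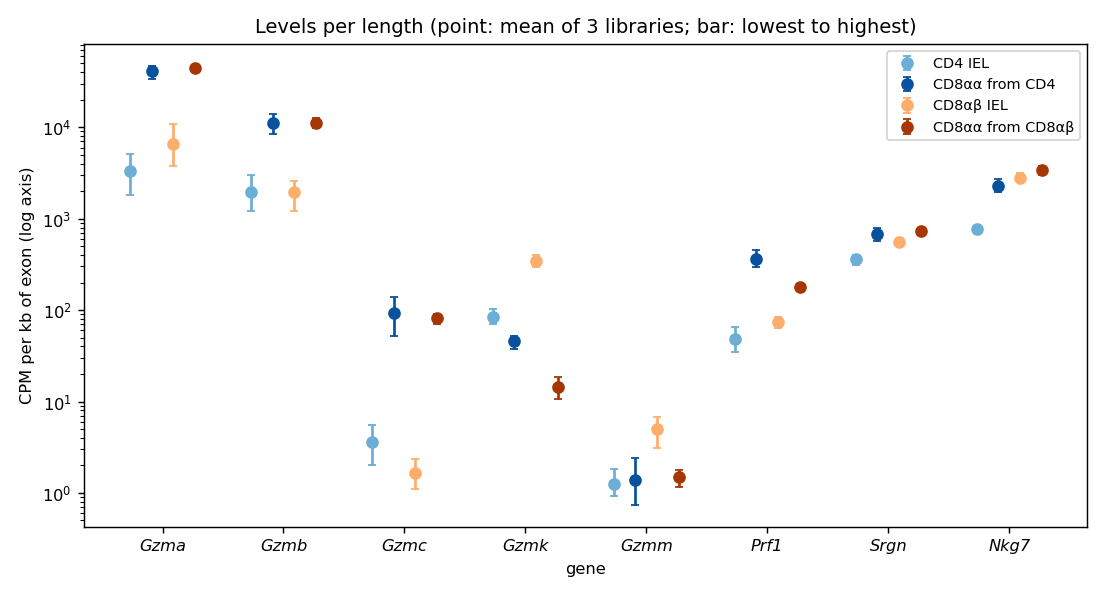
Level per length of each granule gene (CPM per kilobase of exon, log axis) in the 4 groups; points are means of 3 libraries and bars run from the lowest to the highest library. Gzma and Gzmb lead in both CD8αα groups, and Gzmk is above Prf1 in CD4 IEL and CD8αβ IEL but below it in both CD8αα groups.

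The granzyme pool, meaning the summed level per kilobase of the 5 granzyme members, shifted in composition. Gzma made up 78.9% of it in CD8αα from CD4 (76.1 to 81.1) and 79.8% of it in CD8αα from CD8αβ (78.0 to 81.0). It made up 61.5% in CD4 IEL (57.8 to 64.4) and 72.5% in CD8αβ IEL (67.8 to 78.3). The Gzma share of CD8αβ IEL thus overlapped those of both CD8αα groups, and that of CD4 IEL did not. Gzmk, a granzyme with tryptase activity like Gzma, made up 1.92% ± 1.20 in CD4 IEL and 4.28% ± 1.34 in CD8αβ IEL, but 0.0878% and 0.0261% in CD8αα from CD4 and CD8αα from CD8αβ. The ratio of Gzma to Gzmb per kilobase was 1.70 ± 0.198 in CD4 IEL (1.49 to 1.89), below all libraries of the other groups, where it was 3.84 ± 0.587, 3.25 ± 0.877 and 4.0 ± 0.379 in CD8αα from CD4, CD8αβ IEL and CD8αα from CD8αβ (lowest library 2.44). Prf1 stood at 3.15 to 3.51% of the Gzmb level per kilobase in CD8αα from CD4 and at 1.39 to 1.78% in CD8αα from CD8αβ, without overlap. These ratios are descriptions with no test.

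Among cells from hosts given CD4+ T cells, 6 of 8 granule genes were higher in CD8αα from CD4 than in CD4 IEL, 1 was lower and Gzmm did not pass the test. Across all 12622 genes, 15% were higher and 13.5% lower in that comparison (edgeR quasi-likelihood test, Benjamini-Hochberg adjusted p under 0.05, as in all comparisons below). The median log2 fold change was 2.05 over the 8 members and 0.02 over all genes tested. The rises ran from 1.87-fold for Srgn to 25.7-fold for Gzmc. Overlap of libraries is described for single genes here and below, and the share of all genes without overlap was not counted.

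Gzma, a tryptase and the most abundant granzyme here, was at 1841, 5176 and 3062 CPM in replicates 1, 2 and 3 of CD4 IEL and at 33523, 45097 and 47159 CPM in CD8αα from CD4. All CD8αα libraries were above all CD4 IEL libraries although replicate 2 of CD4 IEL was well above the other 2. Its log2 fold change was 3.64 ± 0.401 (SE; adjusted p = 1.46e-05, edgeR). Gzmb, the granzyme that cleaves after aspartate and sets off apoptosis, was at 1761, 4328 and 2314 CPM in CD4 IEL and at 12099, 20053 and 15413 CPM in CD8αα from CD4. It did not overlap between the groups, and it rose less than Gzma, by 2.50 ± 0.330 (log2; adjusted p = 7.26e-05, edgeR). In both groups replicate 2 had the highest Gzmb, and the labels do not tie replicates of different groups together.

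Gzmc, a granzyme of the Gzmb gene cluster, was close to the detection limit in CD4 IEL and had the highest fold of the members. It was at 2.94, 4.95 and 1.80 CPM in CD4 IEL and at 46.7, 81.5 and 124 CPM in CD8αα from CD4 (log2 fold change 4.69 ± 0.403; adjusted p = 1.6e-06, edgeR). Even so, the Gzmc level in CD8αα from CD4 was far under that of Gzma and Gzmb. Prf1 was at 113, 169.9 and 90.1 CPM in CD4 IEL and at 764, 1172 and 873 CPM in CD8αα from CD4. No library overlapped, and Prf1 rose by 2.91 ± 0.227 (log2; adjusted p = 6.84e-07, edgeR).

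The storage and membrane proteins rose less. Srgn was at 831, 870.2 and 686 CPM in CD4 IEL and at 1266, 1464 and 1733 CPM in CD8αα from CD4 (log2 fold change 0.90 ± 0.134; adjusted p = 0.000187, edgeR). Nkg7, which is needed for efficient degranulation, was at 647, 709 and 741 CPM in CD4 IEL and at 1789, 2063 and 2466 CPM in CD8αα from CD4 (1.59 ± 0.141; adjusted p = 1.98e-06, edgeR). For both genes every CD8αα library stood above every CD4 IEL library.

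Gzmk was the member that fell. It was at 144, 112 and 98.9 CPM in CD4 IEL and at 51.7, 68.0 and 73.3 CPM in CD8αα from CD4, without overlap (log2 fold change -0.88 ± 0.212; adjusted p = 0.00682, edgeR). Gzmm, a granzyme that cleaves after methionine or leucine, was at 2.72, 1.43 and 1.35 CPM in CD4 IEL and at 3.58, 1.37 and 1.09 CPM in CD8αα from CD4. These values overlapped and rested on 25, 11 and 9 reads and on 21, 12 and 7 reads, and the 95% interval of the log2 difference, -1.19 to 1.41, includes changes of over 2-fold in either direction. With the Y-positive library alone for CD8αα from CD4, a single library whose spread is taken from the other groups, the 6 rises passed the test and Gzmk did not (log2 fold change -0.69, adjusted p = 0.178, edgeR). Leaving out any single library ended none of the 7 calls.

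**Figure D3:**
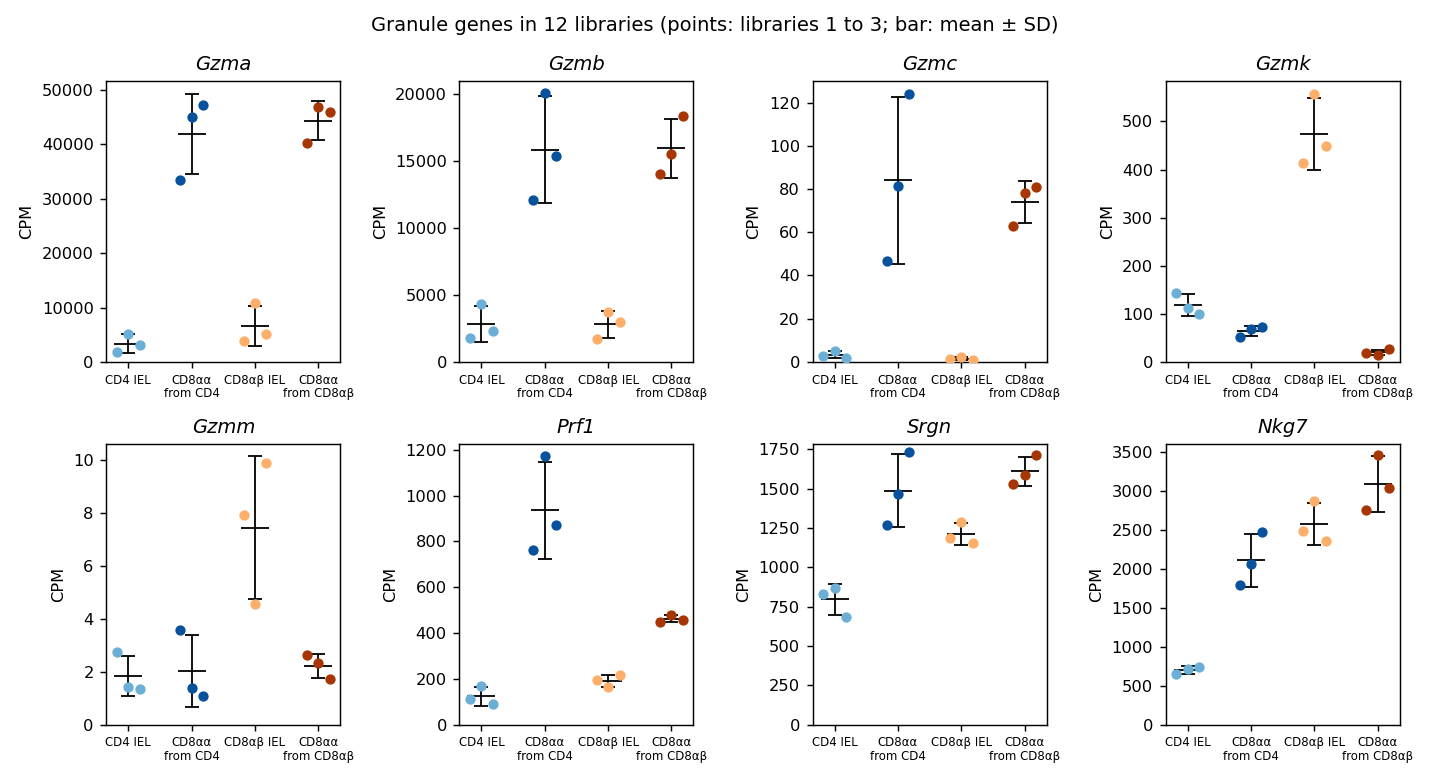
Level of the 8 granule genes (CPM over TMM-scaled totals, linear axes from 0 that differ between panels) in the 4 groups; points are libraries 1 to 3 from left to right, and bars give mean ± SD. Gzma, Gzmb, Gzmc and Prf1 are higher in both CD8αα groups than in CD4 IEL and CD8αβ IEL, and Gzmk is highest in CD8αβ IEL (414 to 557 CPM) and lowest in CD8αα from CD8αβ (14.9 to 25.8 CPM).

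Among cells from hosts given CD8αβ+ T cells, 5 of 8 granule genes were higher in CD8αα from CD8αβ than in CD8αβ IEL, Gzmk and Gzmm were lower, and Nkg7 did not pass the test. Of all genes tested, 16.1% were higher and 15.1% lower. The median log2 fold change of the members was 0.85, against 0.00 over all genes. Gzmc, Gzma and Gzmb had the largest rises.

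Gzma was at 3836, 10867 and 5059 CPM in CD8αβ IEL and at 40292, 46837 and 45997 CPM in CD8αα from CD8αβ (log2 fold change 2.75 ± 0.386; adjusted p = 0.000102, edgeR). Gzmb was at 1747, 3707 and 2955 CPM in CD8αβ IEL and at 14031, 15496 and 18353 CPM in CD8αα from CD8αβ (2.51 ± 0.330; adjusted p = 5.88e-05, edgeR). Gzmc was at 1.39, 2.11 and 0.987 CPM in CD8αβ IEL and at 63.0, 78.1 and 81.1 CPM in CD8αα from CD8αβ (5.56 ± 0.438; adjusted p = 5.72e-07, edgeR). In all 3 genes the lowest CD8αα library was above the highest CD8αβ IEL library.

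Prf1 rose with them, but by a smaller factor than in the CD4 progeny. It was at 193, 163 and 216 CPM in CD8αβ IEL and at 448, 480.3 and 458 CPM in CD8αα from CD8αβ (log2 fold change 1.28 ± 0.215; adjusted p = 0.000449, edgeR). Srgn was at 1185, 1287 and 1154 CPM in CD8αβ IEL and at 1529, 1586 and 1713 CPM in CD8αα from CD8αβ (0.41 ± 0.133; adjusted p = 0.0297, edgeR). Its libraries did not overlap, yet the change was the smallest of those called.

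Nkg7 was high in both groups, at 2481, 2870 and 2354 CPM in CD8αβ IEL and at 2748, 3460.4 and 3039 CPM in CD8αα from CD8αβ. The libraries overlapped, and the log2 fold change of 0.26 ± 0.137 missed the threshold (adjusted p = 0.172, edgeR), with a 95% interval from -0.03 to 0.56. In contrast, Gzmk was among the members with the largest change. It was at 414, 557 and 448 CPM in CD8αβ IEL and at 19.4, 14.9 and 25.8 CPM in CD8αα from CD8αβ, a fall by 4.56 ± 0.243 on the log2 scale (adjusted p = 2.02e-08, edgeR). Gzmm was at 7.90, 4.54 and 9.87 CPM in CD8αβ IEL and at 2.62, 2.34 and 1.72 CPM in CD8αα from CD8αβ (log2 fold change -1.73 ± 0.585; adjusted p = 0.0375, edgeR).

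The calls of Gzmm and Srgn in this comparison were lost under several alternatives. Without CD8αβ IEL replicate 1 or 3 or any 1 of the CD8αα from CD8αβ libraries, the adjusted p of Gzmm was 0.0773 to 0.123 (edgeR), and without replicate 1 or 2 of CD4 IEL, replicate 1 or 3 of CD8αβ IEL or replicate 2 or 3 of CD8αα from CD8αβ that of Srgn was 0.0532 to 0.14. Without the filter on low counts the adjusted p of Srgn was 0.0551 (edgeR). With the Y-positive CD8αα library alone, Gzma, Gzmb, Gzmc, Prf1 and Gzmk passed the test, and Gzmm and Srgn did not (adjusted p = 0.331 and 0.268, edgeR).

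**Figure D4:**
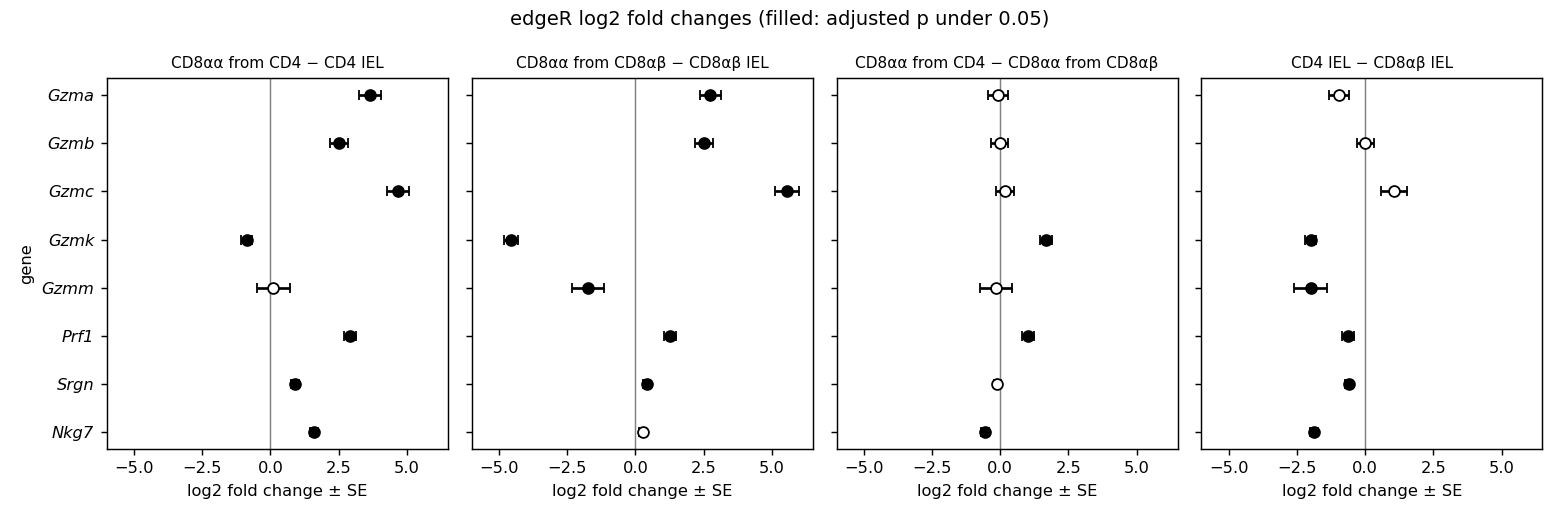
edgeR log2 fold changes ± SE of the 8 granule genes in the 4 comparisons between groups; filled points have an adjusted p under 0.05. Gzma, Gzmb and Gzmc lie far to the right in both comparisons with CD4 IEL or CD8αβ IEL and near 0 between the 2 CD8αα groups, where Gzmk (1.68) and Prf1 (1.02) lie to the right and Nkg7 (-0.55) to the left.

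The series title asks how CD8αα IEL of the 2 origins differ, and between CD8αα from CD4 and CD8αα from CD8αβ 3 of 8 granule genes passed the test: Gzmk and Prf1 were higher in CD8αα from CD4, and Nkg7 was lower. Of all genes tested, 1.87% were higher and 2.47% lower. The median log2 fold change was -0.05 over the members and -0.03 over all genes. Gzmk was at 51.7 to 73.3 CPM in CD8αα from CD4 and at 14.9 to 25.8 CPM in CD8αα from CD8αβ (log2 fold change 1.68 ± 0.221; adjusted p = 0.00138, edgeR). Prf1 was at 764 to 1172 CPM and at 448 to 480.3 CPM (1.02 ± 0.213; adjusted p = 0.018, edgeR). Nkg7 was at 1789 to 2466 CPM and at 2748 to 3460.4 CPM (-0.55 ± 0.138; adjusted p = 0.0397, edgeR). The libraries of these 3 genes did not overlap between the 2 groups, and the share of all genes without overlap was not counted.

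Gzma, Gzmb, Gzmc, Gzmm and Srgn did not pass the test between the CD8αα groups, and their libraries overlapped. The 95% interval of the log2 difference was -0.86 to 0.70 for Gzma, -0.68 to 0.66 for Gzmb, -0.51 to 0.88 for Gzmc, -1.44 to 1.12 for Gzmm and -0.40 to 0.17 for Srgn. Differences of more than 2-fold thus lay outside the intervals of Gzma, Gzmb, Gzmc and Srgn and inside that of Gzmm. The call of Prf1 was lost without replicate 2 of CD8αα from CD4 (adjusted p = 0.0908, edgeR) or replicate 2 or 3 of CD8αα from CD8αβ (0.0682 and 0.0792), and that of Nkg7 with unscaled library totals (0.064) and without any 1 of 7 libraries, namely replicates 1 and 2 of CD4 IEL, 1 and 2 of CD8αα from CD4, 3 of CD8αβ IEL, and 2 and 3 of CD8αα from CD8αβ (0.0558 to 0.221). With the Y-positive library of each group alone none of the 3 passed, with log2 fold changes of 2.30 for Gzmk (adjusted p = 0.147, edgeR), 0.86 for Prf1 (0.765) and -0.49 for Nkg7 (0.765).

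CD4 IEL had lower levels than CD8αβ IEL for 5 of 8 granule genes (Gzmk, Gzmm, Prf1, Srgn and Nkg7), and none was higher. Of all genes tested, 12.9% were higher and 16% lower in CD4 IEL. The median log2 fold change of the members was -0.79, and that of all genes was 0.01. Nkg7 differed most clearly, at 647 to 741 CPM in CD4 IEL and 2354 to 2870 CPM in CD8αβ IEL (log2 fold change -1.88 ± 0.142; adjusted p = 4.23e-06, edgeR). Gzmk was at 98.9 to 144 CPM and at 414 to 557 CPM (-2.00 ± 0.215; adjusted p = 5.87e-05, edgeR). Srgn was at 686 to 870.2 CPM and at 1154 to 1287 CPM (-0.60 ± 0.133; adjusted p = 0.00494, edgeR). These 3 genes were without overlap between the groups.

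Gzmm was lower in CD4 IEL at a few CPM (-2.00 ± 0.596; adjusted p = 0.023, edgeR), without overlap, but not called without replicate 2 or 3 of CD4 IEL or replicate 3 of CD8αβ IEL (0.0663 to 0.0797). Prf1 was lower by 0.62 ± 0.214 on the log2 scale (adjusted p = 0.0444, edgeR), with overlapping libraries, and it was not called without any 1 of 8 libraries, 4 of them in the CD4 IEL and CD8αβ IEL groups (replicates 1 and 3 of each; 0.0773 to 0.154) and 4 in the CD8αα groups that share the estimate of spread (0.055 to 0.06). Gzma, with a log2 fold change of -0.97 ± 0.365, missed the threshold (adjusted p = 0.0607, edgeR), and it passed without replicate 2 of CD4 IEL (0.0181) or replicate 1 of CD8αβ IEL (0.0195). Gzmb had close means, 2801 ± 1351 and 2803 ± 989 CPM (SD, n = 3), and Gzmc did not pass (log2 fold change 1.06 ± 0.477; adjusted p = 0.11, edgeR). The 95% interval of the Gzmb difference was -0.67 to 0.67. With the Y-positive CD8αα libraries alone, which changes the shared estimate of spread, Gzmk, Srgn and Nkg7 passed, and Gzmm and Prf1 did not (adjusted p = 0.0514 and 0.0994, edgeR).

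The difference between the 2 CD8αα changes was tested directly, and it takes in the difference between CD4 IEL and CD8αβ IEL. The test passed for 3 of 8 granule genes, Gzmk, Prf1 and Nkg7, and for 2.56% of all genes. CD4 IEL differed from CD8αβ IEL by -2.00, -0.62 and -1.88 in these genes on the log2 scale. CD8αα from CD4 differed from CD8αα from CD8αβ by 1.68, 1.02 and -0.55. The change of Gzmk was 3.68 ± 0.309 higher on the log2 scale in the CD4 progeny (adjusted p = 2.62e-05, edgeR): it fell by 0.88 there and by 4.56 in the CD8αβ progeny. The change of Prf1 was 1.64 ± 0.301 higher (adjusted p = 0.0117, edgeR), with rises of 2.91 and 1.28. The change of Nkg7 was 1.33 ± 0.195 higher (adjusted p = 0.00246, edgeR), with changes of 1.59 and 0.26. In Nkg7 the 4 groups ranked CD4 IEL, CD8αα from CD4, CD8αβ IEL and CD8αα from CD8αβ from lowest to highest mean, where CD4 IEL lay below all other libraries and CD8αα from CD4 overlapped CD8αβ IEL.

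The difference did not pass for Gzma (0.89 ± 0.512; adjusted p = 0.384, edgeR), Gzmb (-0.01 ± 0.442; 1), Gzmc (-0.88 ± 0.576; 0.454), Gzmm (1.84 ± 0.837; 0.264) or Srgn (0.49 ± 0.188; 0.186). The 95% intervals were -0.21 to 1.99 for Gzma, -0.96 to 0.94 for Gzmb and -2.12 to 0.36 for Gzmc. With the Y-positive CD8αα libraries alone Gzmk passed (4.30; adjusted p = 0.00734, edgeR), and Prf1 (1.48; 0.51) and Nkg7 (1.39; 0.147) did not, while leaving out any single library ended none of the 3 calls.

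The other granule protease genes of the same families were at or near 0 in these libraries. The genome holds Gzmd, Gzme, Gzmf, Gzmg and Gzmn beside Gzmb and Gzmc on chromosome 14, and none of the 5 passed the filter: Gzmd, Gzmg and Gzmn had 0 reads in all 12 libraries, Gzme had 1 read in all, and Gzmf had 7 reads in CD8αβ IEL and 16 reads in CD8αα from CD8αβ. Among 7 mast cell and neutrophil protease genes next to Gzmb, Mcpt4, Mcpt9, Cma1 and Ctsg had 0 reads throughout. The other 3 had reads in libraries labelled CD8αα alone: Mcpt8 had 17 reads in the CD4 progeny and 9 reads in the CD8αβ progeny, and Mcpt1 and Mcpt2 had 9 and 2 reads in the latter. Of the 845 stretches of 50 bases in the Gzmc transcripts, 35 (4.14%) also occur in Gzmd, Gzme or Gzmg, so a part of the Gzmc reads could be split by the counting. No stretch of the other 7 members occurs in another gene.

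The lists of granule machinery that follow were chosen with earlier results of these data known and are described by counts. They are read against the 15% of all genes higher and 13.5% lower in CD8αα from CD4 against CD4 IEL, and the 16.1% higher and 15.1% lower in CD8αα from CD8αβ against CD8αβ IEL. Of 5 genes for protease activation and control, 2 were higher and none lower in CD8αα from CD4 than in CD4 IEL (median log2 fold change 0.37), and 2 were higher and 1 lower in CD8αα from CD8αβ than in CD8αβ IEL (median 0.09). Ctsc, cathepsin C, which removes the propeptide of granzymes, rose by 1.44 ± 0.115 and 1.16 ± 0.114 on the log2 scale (adjusted p = 8.6e-07 and 4.49e-06, edgeR). Cst7, cystatin F, an inhibitor of cathepsin C, rose by 1.94 ± 0.149 and 1.57 ± 0.147 (adjusted p = 6.14e-07 and 2.71e-06, edgeR). The activating protease and its inhibitor were thus both higher in both CD8αα groups. None of the 5 passed between the CD8αα groups, where 1.87% of all genes were higher and 2.47% lower in CD8αα from CD4.

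Of 9 genes for the granule membrane and its biogenesis, 2 were higher and none lower in the CD4 progeny (median log2 fold change 0.16), and 2 were higher and 1 lower in the CD8αβ progeny (median 0.37), which is near the shares of all genes (15 and 16.1% higher, 13.5 and 15.1% lower). Cd63, a tetraspanin of granule and lysosome membranes, was at 1.44 ± 0.936 CPM in CD4 IEL and 23.2 ± 2.19 CPM in CD8αα from CD4, and at 1.58 ± 0.872 CPM in CD8αβ IEL and 53.6 ± 4.51 CPM in CD8αα from CD8αβ (SD, n = 3). Its log2 fold changes were 4.01 ± 0.408 and 5.01 ± 0.410 (adjusted p = 7.14e-06 and 7.99e-07, edgeR). Gnptab, an enzyme of the mannose 6-phosphate tag that sends proteases to lysosomes, rose by 1.30 ± 0.251 in the CD4 progeny (adjusted p = 0.00153, edgeR). Lyst, a regulator of lysosome and granule size, fell by 2.80 ± 0.446 in the CD8αβ progeny (adjusted p = 0.000296, edgeR), and it was the list member whose change differed between the progenies (2.77 ± 0.608; adjusted p = 0.03, edgeR).

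Of 9 measured genes for granule docking and fusion, 4 were higher and 2 lower in each progeny (median log2 fold change 0.34 in both; all genes 15 and 16.1% higher, 13.5 and 15.1% lower). Snap23, a membrane fusion protein, rose by 1.15 ± 0.151 in the CD4 progeny and by 1.93 ± 0.154 in the CD8αβ progeny (adjusted p = 6.92e-05 and 6.48e-07, edgeR). Sytl1, a synaptotagmin-like protein that binds Rab27a, fell by 1.39 ± 0.354 and 2.18 ± 0.368 (adjusted p = 0.00911 and 0.000461, edgeR). Between the CD8αα groups 1 of the 9 passed, where 1.87% of all genes were higher and 2.47% lower in CD8αα from CD4. Vamp8, a vesicle membrane fusion protein, was lower in CD8αα from CD4 (log2 fold change -0.70 ± 0.165; adjusted p = 0.031, edgeR). In CD4 IEL against CD8αβ IEL, 2 of the 9 were higher and 1 lower, beside 12.9% of all genes higher and 16% lower. Vamp8 was lower (-1.21 ± 0.167, adjusted p = 0.000253, edgeR). Sytl2 (1.02 ± 0.199, adjusted p = 0.00245, edgeR) and Stx11 (0.665 ± 0.216, adjusted p = 0.0337, edgeR) were higher.

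Of 9 transcription factors known to regulate cytotoxic genes, 2 were higher and 4 lower in each progeny, with medians of -0.60 and -0.27, beside 15 and 16.1% of all genes higher and 13.5 and 15.1% lower. Those medians were the same with genes at 0 reads set to their bounds. The T-box factor Eomes was at 57.1 ± 2.71 CPM in CD8αβ IEL and 3.17 ± 0.816 CPM in CD4 IEL (SD, n = 3), and it had 3 reads in CD8αα from CD4 and 8 reads in CD8αα from CD8αβ. It fell by 7.63 ± 0.735 in the CD8αβ progeny (log2; adjusted p = 3.56e-06, edgeR). Tcf7, a factor of naive and memory T cells, was at 216 ± 34.9 CPM in CD4 IEL and 2.34 ± 2.03 CPM in CD8αα from CD4 (log2 fold change -6.64 ± 0.563; adjusted p = 1.4e-06, edgeR). Zfp683, also called Hobit, is listed under the older symbol Gm13060. It had 66 reads in CD4 IEL against 1 in CD8αα from CD4, a level 58.9-fold lower with a 95% counting interval of 10.2 to 2362. That interval leaves out the spread between libraries, and the edgeR log2 fold change was -5.37 with a 95% interval of -8.19 to -2.55. Zfp683 had 79 reads in CD8αβ IEL and 0 reads in CD8αα from CD8αβ, a level at least 33.3-fold lower when 3 counts over the group are taken as the limit. The factors that were lower in both progenies included Eomes, Tcf7 and Zfp683, and the 2 that were higher in both were Runx3 and Nfil3. Nfil3 rose by 0.66 ± 0.226 and 1.15 ± 0.226 on the log2 scale (adjusted p = 0.0432 and 0.0015, edgeR). Whether any of these factors bears on the granule genes was not tested.

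Tbx21 (T-bet) and Runx3, named here after their values were seen, differed less. Tbx21 had 338 ± 33.1 CPM in CD8αα from CD4 against 405 ± 51.0 CPM in CD4 IEL (log2 fold change -0.26; adjusted p = 0.147, edgeR), and at 413 ± 33.7 and 499 ± 19.0 CPM in CD8αα from CD8αβ and CD8αβ IEL (-0.27; adjusted p = 0.122, edgeR). Runx3 had 570.0 ± 12.3 CPM in CD8αα from CD4 against 403 ± 45.8 CPM in CD4 IEL, and at 546 ± 104 and 344 ± 23.5 CPM in CD8αα from CD8αβ and CD8αβ IEL, and it was called higher in both progenies. None of the 9 factors passed between the CD8αα groups, where 1.87% of all genes were higher and 2.47% lower in CD8αα from CD4.

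**Figure D5:**
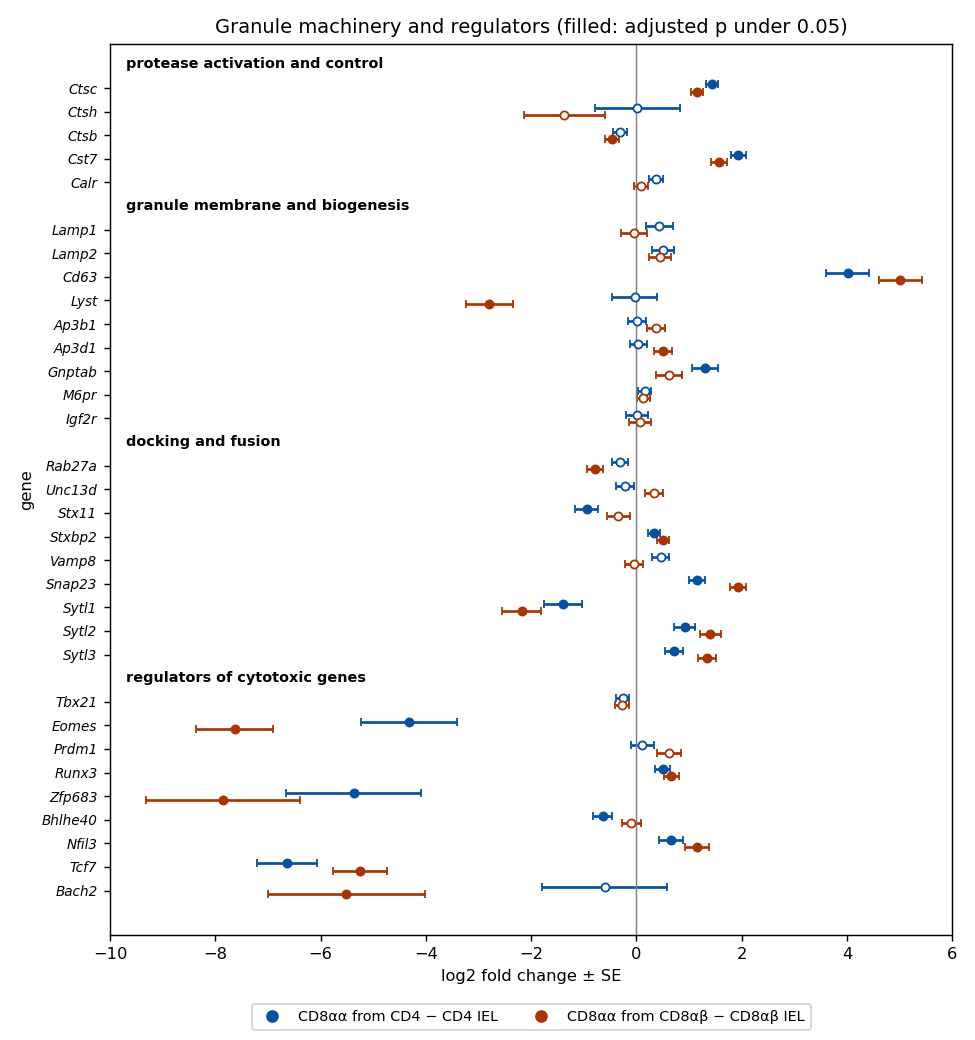
edgeR log2 fold changes ± SE of the granule machinery and regulator genes tested, for CD8αα from CD4 against CD4 IEL and CD8αα from CD8αβ against CD8αβ IEL; filled points have an adjusted p under 0.05. Ctsc, Cst7, Cd63 and Snap23 lie to the right in both, and Eomes, Zfp683 and Tcf7 lie far to the left, where the position of Zfp683 and Eomes rests on few or 0 reads in the CD8αα groups.

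The genes whose log2 CPM followed each member most closely over the 12 libraries were taken by Pearson's r, with members left out. Gzma was followed by Lag3, an inhibitory receptor, and Gpx8 (r = 0.989 for both), and Gzmb by Pik3r6 (0.991), a phosphoinositide 3-kinase subunit, and Cd244 (0.989), a receptor of NK and cytotoxic T cells. Gzmc was followed by Eef2k (0.988) and Rcsd1 (0.986), Prf1 by Itgax (0.970), the integrin chain CD11c, and Hdac9 (0.968), and Gzmk by Hsd11b1 (0.970) and Crtam (0.969), an adhesion receptor of cytotoxic T cells. Srgn was followed by Slc50a1 (0.984) and Nagk (0.976), and Nkg7 by Cmtm7 (0.987) and 2900064A13Rik (0.985). For Gzmm the closest were ENSMUSG00000019917 (0.893), whose symbol the table gives as a date, and Wdr95 (0.883), all at low counts. Among members, Gzma and Gzmb had an r of 0.975, Srgn and Nkg7 of 0.893, and Gzmc and Gzmk of -0.837. These correlations are descriptions over 12 libraries that share 4 groups, so differences between groups make up most of them.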

How the data were processed

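RNA of 12 libraries, 3 in each of 4 groups taken from the sample titles, was analysed. The authors deposited raw read counts per gene as whole numbers. Per the submitters' processing notes, HISAT2 2.1.0 aligned the reads to mm10. How reads were assigned to genes and strands is not given in the sources used here, so overlapping and antisense genes are uncertain. T cell receptor constant genes, not analysed here, are not in the library totals. Of 25965 rows, 66 that shared a symbol with a row of higher total were left out (0.0202% of reads).

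Genes were kept by filterByExpr (minimum count 10, minimum total 15) and tested with edgeR 4.0.16 (R 4.3.3) by its two-sided quasi-likelihood test after TMM scaling, in 1 model of the 12 libraries with 1 mean per group, with Benjamini-Hochberg adjustment over 12622 genes and calls at adjusted p under 0.05. The test was first tried on simulated data. CPM are counts over TMM-scaled totals times 1e6, and shares use unscaled totals. Intervals of shares are Clopper-Pearson intervals at 95%, and those of log2 differences use the SE and the degrees of freedom of the model. The intervals of shares reached 0.289 to 1.51% of the share to either side for Gzma and 26.2 to 82.9% for Gzmm. No 2 libraries of a group agreed within sampling noise. Gene positions are those of the deposited table (mm10), exon lengths are from GENCODE M21, and promoter sequences are from RefSeq (GRCm38.p6), where all 8 members matched by symbol. GENCODE M21 gives the same start and end for Gzmk, Gzmm and Srgn and others for the other 5. Correlations used log2 CPM with a prior count of 2.

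The members, the gene lists and the tests were chosen with earlier results of these data known. The named genes were the 8 members, up to 2 called genes per list and comparison with the largest absolute change, and the 2 genes most like each member. Alternatives were DESeq2 1.42.0, unscaled totals, scaling without the members, no filter, only the groups compared, a replicate block, Y-positive CD8αα libraries alone and each library left out.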

Additional observations from a re-analysis of the deposited data

Results flagged for a closer look

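The CD8αα change of 3 granule genes differed between the progeny of CD4 and of CD8αβ cells, as labelled, by the test of the difference itself (edgeR). The difference, CD4 progeny minus CD8αβ progeny on the log2 scale, was 3.68 for Gzmk, 1.64 for Prf1 and 1.33 for Nkg7. For Gzmk both changes were falls, for Prf1 both were rises, and for Nkg7 the change passed in the CD4 progeny only. With Y-positive CD8αα libraries alone the difference passed for Gzmk and not for Prf1 or Nkg7.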

How the results depend on the processing

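Of 752 fold changes of members under alternatives, 702 stayed on the same side of the threshold in the same direction, 46 lost the call, 4 gained it and 0 reversed. The number of members called was 7 in CD8αα from CD4 against CD4 IEL, 7 in CD8αα from CD8αβ against CD8αβ IEL, 3 between the CD8αα groups, 5 in CD4 IEL against CD8αβ IEL and 3 for the difference of the changes. With the Y-positive CD8αα libraries alone it was 0 between the CD8αα groups, 3 in CD4 IEL against CD8αβ IEL and 1 for the difference of the changes. That alternative leaves 1 library in each CD8αα group. Leaving out each library in turn gave 7, 5 to 7, 1 to 3, 3 to 5 and 3 calls in the order above. The cause of these losses was not tested, beyond the fewer samples. The labels give all groups replicate numbers 1 to 3. Same-numbered libraries did not deviate together in every pair of groups (r from -0.02 to 0.33). In CD8αβ IEL against CD8αα from CD8αβ, same-numbered libraries had r of 0.205, 0.326 and 0.098, and differently numbered ones -0.257 to 0.058. Whether those libraries shared a host was not tested, and the numbers were not taken to pair samples in the main fit. With a replicate block the numbers called were 7, 7, 3, 6 and 3, with Gzma gained in CD4 IEL against CD8αβ IEL (log2 fold change -0.96). The fit of only the groups compared gives no difference of changes, which needs all 12 libraries. Depth limits Gzmm, at 7 to 60 reads per library, and Gzmc in CD4 IEL and CD8αβ IEL.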
